A study of Brassica oleracea var. italica with 2 samples.

Results

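The plastid ribosomal protein operon with rpoA was followed here in whole broccoli seedlings through 7 of its genes, rps19, rpl22, rps3, rpl16, rpl14, rpl36 and rpoA, named in the order in which they are transcribed. A member was any probe set to which the array annotation gives exactly that symbol and no second gene. Each of the 7 symbols had 1 such probe set, so the members are 7 of 13350 distinct gene symbols with a probe set of their own, and no choice between probe sets was needed. Their gene numbers in the annotation, from 844719 (rps3) to 844727 (rpoA), lie among those of plastid genes such as rbcL and psbA. The members were taken by gene name and not by a cut on their signals, though with earlier results of these data known.

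The study set 1 sample of seedlings of the cultivar Elegance carrying the empty vector pCAMBIA1380 against 1 sample of the same cultivar carrying a 35S::antisenseBoEMF2.1 construct, both on a wild type background and both 11 days old. BoEMF2.1 is named after the Arabidopsis Polycomb gene EMF2, a repressor of flowering, and the 35S promoter is active in most plant tissues. Both grew at 21 °C on agar (0.8%) with MS medium and sucrose (1.5%), with 16 h of light and 8 h of dark a day. The genotype label of the antisense sample leaves out the word antisense, which its title and source name give. How many plants or transgenic lines went into a sample is not given in the sources used here, no probe set is named for EMF2, and the level of the targeted gene was not analysed here. The arrays carry Arabidopsis probe sets, so a broccoli transcript was read across species and signals can be compared only between the 2 arrays for the same probe set. With 1 sample per group there is no replicate error and no test, and "higher" and "lower" describe these 2 arrays.

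Plastids keep a small genome of their own, and much of it is laid out in operons whose genes are copied into a shared RNA and then cut and trimmed. The cluster that ends in rpoA is the largest ribosomal protein operon of the plastid and resembles the ribosomal protein operons of bacteria. It starts with rpl23 and rpl2. Its ribosomal proteins join nuclear-encoded ones to build the plastid ribosome. Its last gene encodes the alpha subunit of the plastid-encoded RNA polymerase, which transcribes most photosynthesis genes in green tissue, next to a phage-type polymerase encoded in the nucleus.

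All 7 members had a lower signal on the antisense array, and 5 of them, rps19, rps3, rpl16, rpl36 and rpoA, were 2-fold or more lower. Among the 9382 probe sets that exceeded a floor on each array, 52.1% had a ratio below 0 and 3.51% were at least 2-fold lower. At least 2-fold higher were 3.02% of them and 0 members. The floor was the median signal of each array over probe sets that are not array controls, 317.6 for the vector and 302.7 for the antisense sample. All 7 members lay above it on both arrays, from 8.07 times the floor (rpl16) to 128 times (rps3) on the vector array and from 2.98 times (rpl36) to 40.8 times (rpl22) on the antisense array. The ratios below are log2 of the antisense over the vector signal. In whole seedlings, less RNA per plastid or cell and fewer green cells cannot be told apart.

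**Figure D1:**
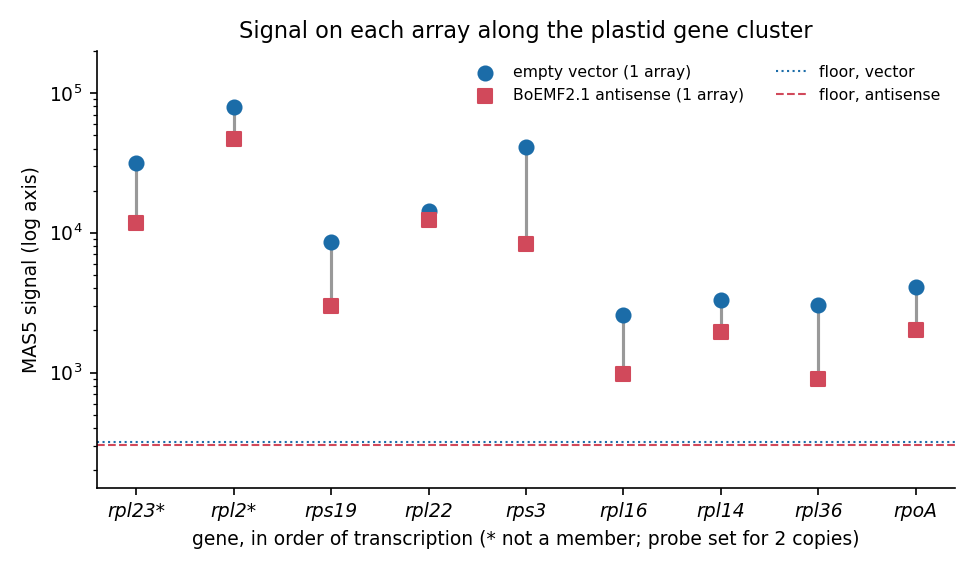
MAS5 signal (log axis) on the vector array (circles) and the antisense array (squares) for the genes of the cluster in order of transcription, with each array's floor as a horizontal line. All 7 members lie above both floors and have the lower signal on the antisense array, with the widest gap at rps3 and the narrowest at rpl22. The asterisk marks rpl23 and rpl2, which are not members and whose probe sets are annotated to 2 copies of each gene.

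Among the genes for proteins of the small ribosomal subunit, rps3 gave 40757.2 signal units with the empty vector and 8281.1 with the antisense construct. It was thus 4.92-fold lower, a ratio of -2.30, and the lowest of the 7. In Escherichia coli the protein uS3, to which rps3 corresponds, forms part of the channel through which the mRNA enters the ribosome. The signal of rps19, the first member in the order of transcription, was 8639.9 with the vector and 3013.5 with the antisense construct. It was 2.87-fold lower, a ratio of -1.52, and its bacterial counterpart uS19 sits in the head of the small subunit. Both small-subunit members were therefore past 2-fold, and on the antisense array they kept 20.3% (rps3) and 34.9% (rps19) of the vector signal.

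The 4 genes for proteins of the large subunit spread more widely. The signal of rpl36 was 3038.9 with the vector and 901.8 with the antisense construct, which is 3.37-fold lower and a ratio of -1.75. It encodes a very small zinc-binding protein in bacteria. The gene rpl16, which in many plants is interrupted by an intron and whose bacterial counterpart uL16 lies close to the site where tRNAs enter, had signals of 2564.4 and 973.1. It was 2.64-fold lower, a ratio of -1.40, which was also the median of the 7 members. These were the large-subunit members past 2-fold.

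The other two large-subunit members were under 2-fold. The signal of rpl14, whose bacterial counterpart uL14 lies at the interface of the subunits, was 3285.2 with the vector and 1938.4 with the antisense construct. It was 1.69-fold lower, a ratio of -0.76. The smallest difference of the operon was that of rpl22, which corresponds to a bacterial protein that lines the exit tunnel of the ribosome. Its signals were 14283.7 and 12348.2, a ratio of -0.21, so that the antisense array kept 86.4% of the vector signal.

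The polymerase gene rpoA went from a signal of 4072.4 with the vector to 2017.6 with the antisense construct. At 2.02-fold lower, a ratio of -1.01, it stood at the threshold: centring the ratios on their median took it to -0.99, and adding a pseudocount to -0.98. Its ratio lay above that of 4 of the 6 ribosomal members and below those of rpl14 and rpl22. At a threshold of 3-fold, 2 members remained, rps3 and rpl36, against 0.32% of all probe sets and 8.33% of the other plastid-encoded genes. At 1.5-fold, 6 members passed, all but rpl22, against 13.1% of all probe sets and 58.3% of the other plastid-encoded genes.

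No replicate measures the error of these ratios. The spread between probe sets gave a partial yardstick: over 31 gene symbols with 2 probe sets each, all brighter than the floor, the SD of a single ratio was 0.44, and that of a difference between ratios 0.62. Symbols shared by different genes would widen it, and the variation from plant to plant is not part of it. By size, 6 of the 7 members had a ratio farther from 0 than 0.44, and rpl22 did not, against 38.2% of all probe sets and 73.3% of the other plastid-encoded genes.

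The members' ratios differed in size. In order of transcription the ratio went from -1.52 (rps19) to -0.21 (rpl22), -2.30 (rps3), -1.40 (rpl16), -0.76 (rpl14), -1.75 (rpl36) and -1.01 (rpoA). There was no steady course from the first gene to the last: each of the 6 steps between successive members was larger than 0.62, and the steps went both up and down. The widest, 2.09, lay between rpl22 and rps3, which follow each other in the cluster. Of the 15 pairs of members that do not follow each other, 7 differed by more than 0.62. Over all 21 pairs, 13 did so, and 5 differed by more than 1.23, which is 2 of these SDs. In each of the 5 was rpl22 or rps3. Of the 6 steps between successive members, only rps19 to rpl22 (1.31) and rpl22 to rps3 (2.09) exceeded 1.23, and both rest on the rpl22 probe set. Among the 1770 pairs of the 60 other plastid-encoded genes, 40.5% differed by more than 0.62 and 9.83% by more than 1.23, against 61.9% and 23.8% of the member pairs. Pairs that share a gene are not independent, and the difference between these shares was not tested.

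**Figure D2:**
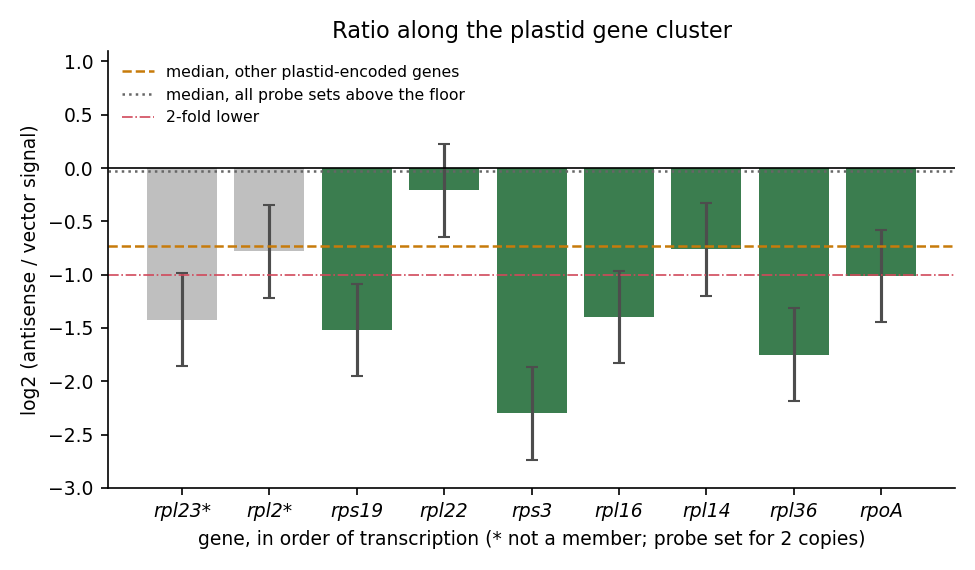
Bars give the log2 ratio of antisense over vector signal for each gene in order of transcription, members in green and rpl23 and rpl2 in grey, and error bars are ± 0.44, the SD of a single ratio from 31 genes with 2 probe sets. Every bar lies below 0, from -0.21 at rpl22 to -2.30 at rps3. Horizontal lines mark the median of the other plastid-encoded genes (-0.73), that of all probe sets above the floor (-0.02) and 2-fold lower.

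Sorted by ratio rather than by position, the order was rps3, rpl36, rps19, rpl16, rpoA, rpl14 and rpl22. No gap between neighbours in that order exceeded 0.62. The largest gaps were 0.55 between rpl14 and rpl22 and 0.55 between rps3 and rpl36, and the smallest was 0.12 between rps19 and rpl16. The ends of the order are thus apart by more than 2 SDs, and its middle places are not resolved by this yardstick.

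The start of the cluster was read by probe sets annotated to both copies of rpl23 and of rpl2 in the plastid's inverted repeat. They encode large-subunit proteins, and rpl2 corresponds to a core protein of the bacterial ribosome. The rpl23 probe set had signals of 31462.2 and 11737.7, a ratio of -1.42. The rpl2 probe set had signals of 79870.5 and 46513.1, a ratio of -0.78. Both values lie within the range of the 7 members. The 9 genes read here from rpl23 to rpoA had a median ratio of -1.40, and 6 of the 9 passed 2-fold lower. The shares past it were 3.51% of all probe sets above the floor and 31.7% of the other plastid-encoded genes.

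Next to the cluster, petD, petB and ndhB had a ratio closer to 0 than the members' median of -1.40. The median of the other plastid-encoded genes, -0.73, was closer to 0 as well. A further neighbour, ycf2, gave only a bound. Beyond rpoA, on the opposite strand, lie petD and petB, which encode subunits of the cytochrome b6f complex of photosynthetic electron transport. The gene next to rpoA, petD, had signals of 847.1 and 901.7, a ratio of 0.09, which turned negative when the arrays were scaled to their hybridization controls, since that scaling lowers every ratio by 0.19. The ratio of petB was -0.91, with signals of 10269.2 and 5477.8, and lay below those of the members rpl14 and rpl22. Beyond rpl23, ycf2, a very long reading frame, was above the floor on the vector array alone (513.3 and 242.9), at least 1.70-fold lower. The ratio of ndhB, a subunit of the plastid NDH complex, was -0.35 (596.7 and 469.4). On the vector and antisense arrays, ndhB was 1.88 and 1.55 times the floor, and petD 2.67 and 2.98 times. The probe sets of ycf2 and ndhB are likewise annotated to 2 copies.

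Against the rest of the plastid genome, the operon stood on the low side of a group that was low as a whole. The 60 other plastid-encoded genes with a probe set of their own and a signal above the floor on at least 1 array had a median ratio of -0.73 (SD over genes 0.53), and 31.7% of them (19 genes) were 2-fold or more lower. The members' median of -1.40 (SD over members 0.69) was 0.67 below. By ratio, 58 of the 60 were negative (96.7%); for atpF, at 272.2 and 305.5, the ratio is a bound and its sign is opposite to that of the signals. The median over all probe sets above the floor was -0.02. No test was made of the difference between the operon and the other plastid genes: genes of a shared operon and genome are not independent samples.

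Among the 67 plastid-encoded genes with a ratio, rps3 held the second place from the lowest, after psbL, a small photosystem II subunit, at -2.40. The other members were placed 4 (rpl36), 9 (rps19), 11 (rpl16), 22 (rpoA), 35 (rpl14) and 60 (rpl22). The operon therefore reached from near the bottom of the plastid genes to near their top. Of all 9382 probe sets above the floor, 0.0426% had a lower ratio than rps3 and 34.7% a lower one than rpl22.

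**Figure D3:**
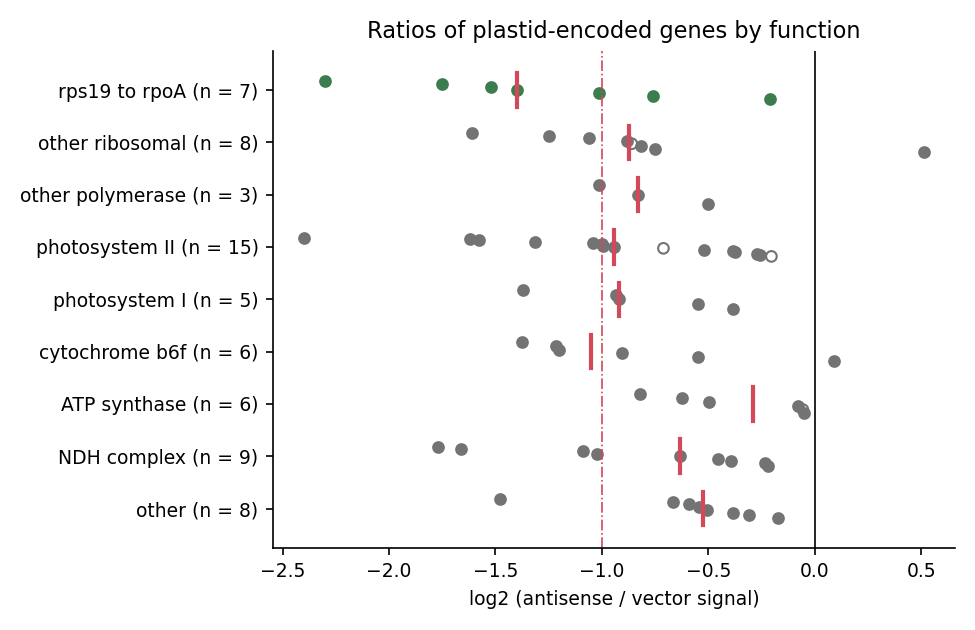
Each point is the log2 ratio of antisense over vector signal of 1 plastid-encoded gene, by function, with a vertical bar at each group's median, and open points are bounds for genes under the floor on 1 array. The 7 members (green) spread from -2.30 to -0.21 around a median of -1.40, and the medians of the other groups lie between -1.05 (cytochrome b6f) and -0.29 (ATP synthase).

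Other plastid genes for ribosomal proteins were also mostly lower. From a list of such genes outside the cluster, 9 had a ratio, with a median of -0.86. Of these, 3 were 2-fold or more lower and none was 2-fold or more higher. That is near the 31.7% of the 60 other plastid-encoded genes, most of these 9 among them, that were 2-fold or more lower. The genes past 2-fold were rpl33 at -1.61 (26451.2 and 8664.6), rps18 at -1.25 (13621.4 and 5728.4) and rps2 at -1.06 (13400.3 and 6420.4). In the plastid genome rpl33 and rps18 neighbour each other, and rps2 follows the genes of the other polymerase subunits. Between -0.88 and -0.52 lay rps14, rpl20, rpl32 and rps7, the latter read by a probe set for 2 copies, and rps4 was at least 1.81-fold lower (549.3 and 108.2).

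The remaining ribosomal protein gene with a ratio, rps15, which lies far from the cluster, went the other way. Its signals were 2206 and 3145.8, a ratio of 0.51. The gene rps16 was below the floor on both arrays, and rps12 has several probe sets annotated to several genes and was not used here. The spread among these genes, with an SD of 0.59, was close in size to the 0.69 among the operon's members.

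None of the polymerase subunit genes encoded elsewhere in the plastid had a lower ratio than rpoA. The subunits beta, beta′ and beta″ of the same enzyme are encoded by rpoB, rpoC1 and rpoC2, which form an operon of their own. The ratio of rpoB was -1.01 (905.8 and 448.9), that of rpoC2 -0.83 (4150 and 2335.1) and that of rpoC1 -0.50 (1886.4 and 1331.2). All 4 subunit genes thus had a lower signal on the antisense array, and rpoA and rpoB had the same ratio to 2 decimals. The 4 ratios lay within 0.62 of each other, so their order is not resolved by that yardstick. On the antisense array rpoB was only 1.48 times the floor. The median of the 6 ribosomal members, -1.46, lay below all 4.

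The plastid-encoded genes outside the cluster with a ratio nearest to the members' median were petL, psaA and ycf3. Likeness here means the distance from -1.40 in a single comparison of 2 arrays. The ratio of petL, a small subunit of the cytochrome b6f complex, was -1.37 (2307.3 and 889.6). The ratio of psaA, a core protein of photosystem I, was also -1.37 (1526.7 and 590.8). The assembly factor gene ycf3 stood at -1.48 (4622.5 and 1656.5).

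Probe sets of like brightness were not low as a whole. Of 1528 other probe sets with a mean log2 signal between the lowest and the highest of the members, 3.34% were 2-fold or more lower, and their median ratio was 0.08.

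**Figure D4:**
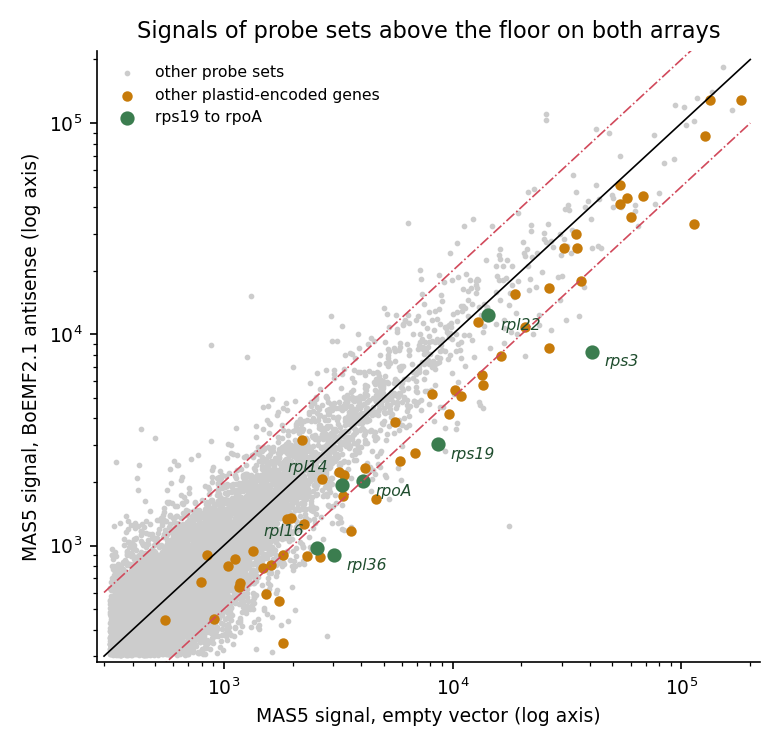
Signal on the antisense array against signal on the vector array (log axes) for the 9382 probe sets that exceeded each floor, with the line of equal signal and lines at 2-fold. The 7 members (green) all lie below the line of equal signal, rps3 farthest from it and rpl22 closest, and plastid-encoded genes (orange) lie mostly below it too.

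Mitochondria hold genes of the same names: the RefSeq annotation of Brassica oleracea lists mitochondrial rps3 and rpl16 beside each other. A separate probe set, annotated to both of these genes by their mitochondrial gene numbers and therefore assigned to neither, had signals of 9253.3 and 3597.2, a ratio of -1.36. For comparison, 13 mitochondrion-encoded genes with names in nad, cox, ccb or orfX had a median of 0.15, and their lowest, nad4, stood at -1.02. Mitochondrial genes for ribosomal proteins were left out of these 13. Whether the probe set for mitochondrial rps3 and rpl16 and those of plastid rps3 and rpl16 read each other's transcripts was not tested.

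Some measures of tissue and RNA moved between the arrays as well. The 3 root marker genes listed were all above the floor, and their summed signal went from 2835.3 on the vector array to 4097.2 on the antisense array, with EXPA7 at 1.63, EXPA18 at 0.80 and PYK10 at -0.44. Of 23 listed nuclear genes of green tissue, 5 had a probe set annotated to that symbol alone, all above the floor. For the other 18 no probe set was named. The summed signal of the 5 went from 51387.2 to 37313.5, with ratios from -1.52 (PSAN) to 0.64 (RCA). Array controls at the 5′ end of actin, ubiquitin and GAPDH transcripts had a higher ratio than those at the 3′ end in 4 of 5 pairs. The differences ran from -0.34 to 0.62, and 1 of the 4, for actin, was only 0.04. A further GAPDH pair was left out because its 3′ control lay below the floor on both arrays. The summed marker signals add unlike probe sets, of which the brightest weigh most, and the ratios within each list went both ways. The part of these shifts in the operon's ratios was not tested. None of 40 listed nuclear genes for plastid ribosomal proteins, and none of 41 for plastid transcription such as sigma factors, had a named probe set, and they were not analysed here.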

How the data were processed

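Total RNA from whole seedlings (10 µg) was labelled as biotinylated cRNA by the Affymetrix protocol and hybridised to 2 arrays, 1 per group, per the labels' protocols. Standard labelling of this kind starts from poly(A) tails, which plastid RNAs carry mainly when being degraded, so a plastid signal need not follow the amount of intact RNA. The authors deposited 1 linear intensity per probe set and array; the submitters' processing notes name MAS5. Mean intensities trimmed by 2% per end were 500.035 (vector) and 500.036 (antisense). Array precision is limited by their number.

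Of 22810 probe sets, 13513 are annotated to 1 gene, 503 to several and 8794 to none. Values were raised to each array's floor, the median of 22746 non-control probe sets; a ratio is a bound where 1 array was below it. Plastid-encoded genes were taken by gene number. The members and gene lists were chosen with earlier results of these data known. Named were the members, the cluster's other genes and neighbours, other plastid ribosomal protein and polymerase genes, 3 genes of nearest ratio, and tissue markers; nad4, atpF and psbL were added after their values were seen. Alternatives were centring, quantile and lowess (span 0.4) normalization, hybridization-control scaling, floors at the 25th or 75th percentile or none, a pseudocount, thresholds of 1.5-fold and 3-fold, and the choice of probe sets. The calling of ratios was tested on simulated data, in bright probe sets lowered by more than any member was. That test did not cover ratios near 2-fold. Python 3.11.15, numpy 2.4.6, pandas 2.3.3, statsmodels 0.14.6 and matplotlib 3.10.9 were used.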

Additional observations from a re-analysis of the deposited data

How the results depend on the processing

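No paired analysis was possible because there is 1 sample per group, which also leaves no replicate to omit. Of 114 values recomputed for 11 results under 12 alternatives, 0 changed sign and 1 moved beyond the set limit, the count of members 3-fold or more lower, which is 2 in place of 5 by the stricter threshold. At 1.5-fold the count was 6. At 2-fold it was 4 after centring or with a pseudocount, when rpoA fell short (-0.99 and -0.98), and 5 under the other normalizations, floors and probe set choices. The members' median ranged from -1.59 to -1.32, and its distance from that of the other plastid-encoded genes from -0.74 to -0.57. Scaling to the hybridization controls moved the median of all probe sets from -0.02 to -0.22, and the members' median stayed 1.37 below it on the log2 scale. The 2 probe set choices changed nothing, since each member has 1 probe set, with a plastid gene number. The alternative floors left each member's ratio as it was, since the members lay above them, and a count has no sign to change. Part of the 114 values therefore could not move.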
